A study of Mus musculus with 27 samples.

Results

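The cyclin-dependent kinase inhibitors of the mouse are encoded by 7 genes in 2 families, and all 7 were found among the 23382 gene symbols of the RNA tables. The CIP/KIP family holds 3 of them, Cdkn1a, Cdkn1b and Cdkn1c, and the INK4 family the other 4, Cdkn2a, Cdkn2b, Cdkn2c and Cdkn2d. The genes were listed by family. Each was followed in RNA, in CpG methylation at its start and at its other end, and in peaks of H3K4me3 and H3K4me1.

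These proteins hold back the cell cycle before DNA is copied. INK4 proteins bind the kinases CDK4 and CDK6 and keep them from cyclin D, whereas CIP/KIP proteins bind complexes of CDK2 with cyclin E or cyclin A. With those kinases held back, the RB protein stays unphosphorylated and keeps the E2F factors from the genes of S phase. Several of the genes act as tumour suppressors, and Cdkn2a and Cdkn2b are known in B-cell lymphoma for loss by deletion or by promoter methylation.

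The cells came from the VavP-Bcl2 model of B-cell lymphoma, in which a Vav promoter drives the survival gene Bcl2 in blood cells, and every group carried that transgene. Blood stem cells were taken from fetal liver at embryonic day 13.5. They were infected with empty retroviral vector (vector) or with MSCV-SHMT2, a retrovirus that expresses the mitochondrial serine hydroxymethyltransferase, and were put into irradiated wild-type mice. B220-positive cells, B220 being a surface mark of B cells, were later isolated from the spleens, and the labels call the source tumours. RNA-seq had 3 vector and 3 SHMT2 libraries, H3K4me1 2 and 2, and H3K4me3 2 and 3. CpG methylation was read by ERRBS, a bisulfite method enriched for CpG-rich DNA, in 3 libraries of each group. The ERRBS labels name the model, the vector and B220-positive cells only, and for SHMT2 replicates 2 and 3 the label reads SHMT3 and SHMT4, so groups follow the titles. No label ties a library to an animal, and p-values therefore measure only how these samples spread, which may be technical. Gene spans are RefSeq gene records of GRCm38.p6, and exons were not used here. The question behind the design, from the title of the study, is whether SHMT2 silences tumour suppressors in lymphoma.

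RNA levels were given as TPM, a transcript share and length-scaled level that keeps no sequencing depth, so the RNA depth was unknown. The ERRBS libraries shared 1211987 autosomal cytosines, covered by 68.7 to 78.2 calls on average. Shmt2 lay between 157 and 223 TPM in vector and between 244 and 345 TPM with SHMT2 (log2 fold change 0.61, SE 0.19, adjusted p = 0.216 by limma), without overlap. The 12 B cell markers were all present. They summed to 7765 and 7075 TPM in vector replicates 2 and 3, against 9525 to 9791 TPM in the other 4 libraries. With SHMT2 11 of them lay above a log2 fold change of 0 and 1 below, and 0 had an adjusted p under 0.05 by limma. Vector replicates 2 and 3 stood apart: their 16 erythroid markers summed to 7088 and 1453 TPM against 191 to 346 TPM in the other 4 libraries, and their 17 myeloid markers to 1106 and 1022 TPM against 195 to 417 TPM. The adult haemoglobins Hba-a1 and Hbb-b1 were listed at 0 in all 6. T and NK cell markers summed to 40.2 to 91.6 TPM, plasma cell markers to 1866 to 4252 TPM, and stroma and platelet markers to 112 to 202 TPM. In ERRBS, SHMT2 replicate 2 stood apart, with 28242 cytosines at least 25 points above all other libraries and 13411 below them, against at most 2679 in either direction in any other library.

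The starts of these genes are shown because methylation and H3K4me3 were read there. Sequences are from RefSeq (GRCm38.p6, the build also called mm10), 250 bases before to 50 after each start, 5′ to 3′ on the gene's strand, and 9 starts of 6 genes matched. CpG pairs are in capitals, except in the Cdkn1a distal start. There the capitals mark 2 copies of CATG set 6 bases apart (CATGNNNNNNCATG, which reads the same on both strands), the core letters of a binding element of the p53 protein.
Cdkn1a distal start, chr17:29090729-29091028, plus strand: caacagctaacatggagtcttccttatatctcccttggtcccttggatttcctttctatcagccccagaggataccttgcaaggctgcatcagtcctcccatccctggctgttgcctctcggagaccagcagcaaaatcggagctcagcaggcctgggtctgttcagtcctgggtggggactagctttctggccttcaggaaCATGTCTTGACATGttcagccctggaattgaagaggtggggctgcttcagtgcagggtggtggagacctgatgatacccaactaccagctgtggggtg
Cdkn1a main start, chr17:29093519-29093818, plus strand: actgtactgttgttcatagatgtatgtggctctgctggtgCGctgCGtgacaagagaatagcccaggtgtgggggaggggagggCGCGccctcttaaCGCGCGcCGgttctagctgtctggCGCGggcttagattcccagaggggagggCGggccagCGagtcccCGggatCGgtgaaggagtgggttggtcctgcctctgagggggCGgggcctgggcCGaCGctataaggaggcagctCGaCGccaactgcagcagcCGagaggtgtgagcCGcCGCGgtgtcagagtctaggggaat
Cdkn1b start, chr6:134920151-134920450, plus strand: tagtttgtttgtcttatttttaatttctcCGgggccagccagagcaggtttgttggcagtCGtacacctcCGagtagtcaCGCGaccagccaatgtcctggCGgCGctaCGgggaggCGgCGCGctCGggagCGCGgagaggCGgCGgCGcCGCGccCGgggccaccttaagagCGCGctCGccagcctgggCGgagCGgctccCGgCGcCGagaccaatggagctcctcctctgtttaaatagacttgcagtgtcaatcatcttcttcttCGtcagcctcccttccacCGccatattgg
Cdkn2a ARF start, chr4:89294570-89294869, minus strand: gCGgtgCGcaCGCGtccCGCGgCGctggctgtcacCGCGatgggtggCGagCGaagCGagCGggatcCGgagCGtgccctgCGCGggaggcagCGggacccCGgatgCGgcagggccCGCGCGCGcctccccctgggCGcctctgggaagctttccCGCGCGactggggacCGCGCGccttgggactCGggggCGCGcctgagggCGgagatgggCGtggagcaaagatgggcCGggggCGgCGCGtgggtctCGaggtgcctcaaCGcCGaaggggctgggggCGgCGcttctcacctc
Cdkn2a INK4a start, chr4:89282143-89282442, minus strand: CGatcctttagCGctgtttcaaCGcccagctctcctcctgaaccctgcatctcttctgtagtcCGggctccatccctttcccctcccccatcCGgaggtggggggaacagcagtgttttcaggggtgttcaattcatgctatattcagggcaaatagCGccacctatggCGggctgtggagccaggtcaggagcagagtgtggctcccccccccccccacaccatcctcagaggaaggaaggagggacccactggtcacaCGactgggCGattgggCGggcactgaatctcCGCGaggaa
Cdkn2b start, chr4:89310983-89311282, minus strand: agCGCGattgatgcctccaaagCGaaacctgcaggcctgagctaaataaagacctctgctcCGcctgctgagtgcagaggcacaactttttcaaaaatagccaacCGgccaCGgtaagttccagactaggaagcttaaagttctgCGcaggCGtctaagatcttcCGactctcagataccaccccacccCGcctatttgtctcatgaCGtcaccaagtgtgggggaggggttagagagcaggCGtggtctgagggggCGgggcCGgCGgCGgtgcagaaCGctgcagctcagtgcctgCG

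The starts ran from CpG-poor to CpG-dense. The Cdkn1a distal start held 2 CpG in 300 bases, against a median of 7 over the 32851 promoters of the table, and its CATG pair began 48 bases before the start. That pair was present in 0.712% of those promoters. The main start of Cdkn1a, further inside the gene, held 23 CpG, Cdkn1b 30, Cdkn2b 18, and the INK4a start of Cdkn2a 12. The ARF start of Cdkn2a held 45 CpG, and 98.4% of promoters held as many or fewer. Both starts of Cdkn2c, with 33 and 8 CpG, and that of Cdkn2d, with 22, are not printed. The GC box GGGCGG, searched on both strands, was found in 7 of the 9 sequences and in 35.7% of all promoters. It occurred 5 times at Cdkn2d, 4 times at the 1st start of Cdkn2c and 3 times at the ARF start. Cdkn1c had no entry in the promoter table and is named by its gene span only (chr7:143458339-143461059).

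Cdkn1b stood highest, at a mean of 33.5 TPM over the 6 libraries, followed by Cdkn1a (13.7), Cdkn2d (11.9), Cdkn2c (8.16), Cdkn2a (2.19), Cdkn2b (2.01) and Cdkn1c (0.355 TPM). The ranges of neighbours in that order overlapped except in 2 places. Every library held more Cdkn2c, 5.32 TPM or above, than any library held of Cdkn2a, 3.01 TPM or below, and Cdkn2b at 1.14 TPM or above lay over Cdkn1c at 0.452 TPM or below. Within each library Cdkn1b exceeded Cdkn1a in 6 of 6 and Cdkn2a exceeded Cdkn2b in 3 of 6. The 3 CIP/KIP genes summed to 34.3, 56.4 and 69.0 TPM in vector and to 41.6, 41.5 and 42.3 TPM with SHMT2. The 4 INK4 genes summed to 23.0, 33.2 and 27.2 TPM and to 17.8, 23.4 and 21.0 TPM. In both sums vector replicates 2 and 3 lay above all SHMT2 libraries, while vector replicate 1 lay below them for CIP/KIP and among them for INK4.

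**Figure D1:**
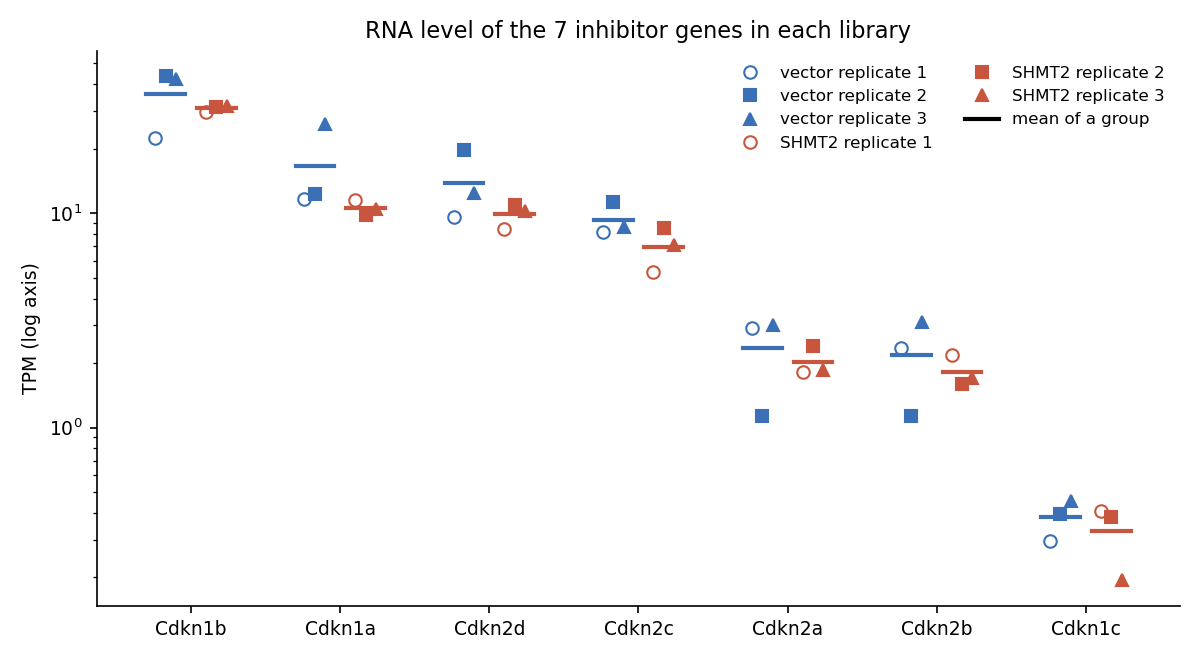
TPM of the 7 inhibitor genes on a log axis, with vector libraries in blue, SHMT2 libraries in red, one symbol per replicate and a bar at each group mean. Cdkn1a is the gene whose groups do not overlap, with 9.82 to 11.6 TPM with SHMT2 and 11.6 to 26.2 TPM in vector, the nearest libraries being almost equal.

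No inhibitor passed the test between the groups. Of the 7 genes 6 had a mean of at least 1 TPM and were tested, and 0 of 6 had an adjusted p under 0.05 by limma on log2(TPM + 1), the scale of every log2 fold change given here, against 0.0% of the 11117 genes tested. At an unadjusted p under 0.05 the count was also 0 of 6, against 16.7% of all genes. All 6 had a fold change below 0, with a median of −0.27, while 46.8% of all tested genes lay below 0 and their median was 0.02. Leaving out vector replicate 1 moved the median of the 6 to −0.46, and leaving out vector replicate 3 to −0.09. With 3 against 3 libraries the exact permutation test cannot go below p = 0.1. In these bulk samples, fewer cells of a type and less RNA per cell cannot be told apart.

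Cdkn1a (chr17:29090979-29100722) encodes p21, the inhibitor that p53 switches on after DNA damage. Its level was 11.6, 12.3 and 26.2 TPM in vector replicates 1 to 3 and 11.6, 9.82 and 10.4 TPM in SHMT2 replicates 1 to 3, or 16.7 ± 8.20 and 10.6 ± 0.883 TPM (mean ± SD, n = 3). The SHMT2 libraries all lay below the vector libraries, as in 8.26% of the genes tested, but the lowest vector library, at 11.63 TPM, and the highest SHMT2 library, at 11.56 TPM, almost met, and vector replicate 3 alone held more than 20 TPM. The log2 fold change came to −0.52 (SE 0.30, adjusted p = 0.417 by limma, exact permutation p = 0.1). Without vector replicate 3 it was −0.16 (SE 0.11, adjusted p = 0.535 by limma).

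Cdkn1b (chr6:134920401-134925525) encodes p27, which holds resting lymphocytes out of the cycle. It stood at 22.3, 43.7 and 42.4 TPM with vector, against 29.7, 31.3 and 31.6 TPM with SHMT2, or 36.1 ± 11.97 and 30.9 ± 1.07 TPM (mean ± SD, n = 3). The SHMT2 libraries lay close together and between vector replicate 1 below them and vector replicates 2 and 3 above them. With all 6 libraries the log2 fold change came to −0.16 (SE 0.26, adjusted p = 0.766 by limma, exact permutation p = 0.6). The direction depended on which vector libraries were kept. Without vector replicate 1 it was −0.47 (SE 0.08, adjusted p = 0.0407 by limma), and Cdkn1b was then called, as were 3.76% of 11136 genes in that direction. Without vector replicates 2 and 3 it was 0.45 (SE 0.10, adjusted p = 0.184 by limma), and with the mean level of 29 erythroid and myeloid markers as a covariate 0.25 (SE 0.14, adjusted p = 0.449 by limma). The vector libraries held those markers at a mean log2 level of 2.95, 6.69 and 5.55, the SHMT2 libraries at 3.77, 3.18 and 3.49, so Cdkn1b was highest in the libraries where the markers were highest.

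Cdkn1c encodes p57, and its gene is imprinted, read from the maternal copy. It was listed at 0.297, 0.395 and 0.452 TPM with vector, against 0.410, 0.381 and 0.193 TPM with SHMT2, below 1 TPM in every library and outside the limma fit. The groups overlapped (exact permutation p = 0.6). At this level no difference was detectable.

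Cdkn2a (chr4:89274473-89294619) gives 2 unrelated proteins from 2 starts, the inhibitor INK4a and ARF, which frees p53 from its ligase Mdm2, and the table holds 1 value for both. That value was 2.92, 1.13 and 3.01 TPM with vector, against 1.81, 2.41 and 1.85 TPM with SHMT2, or 2.36 ± 1.06 and 2.02 ± 0.336 TPM (mean ± SD, n = 3). The SHMT2 libraries lay inside the vector range, whose lowest library was vector replicate 2. The log2 fold change came to −0.10 (SE 0.28, adjusted p = 0.874 by limma, exact permutation p = 0.8) and it was above 0 without vector replicate 1 (0.04) or without vector replicate 3 (0.06).

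Cdkn2b (chr4:89306289-89311032) encodes p15, the INK4 protein induced by TGF-beta. It was listed at 2.35, 1.14 and 3.09 TPM with vector, against 2.17, 1.59 and 1.71 TPM with SHMT2, or 2.19 ± 0.987 and 1.82 ± 0.305 TPM (mean ± SD, n = 3). As with its neighbour Cdkn2a, the SHMT2 libraries fell inside the vector range and vector replicate 2 was the lowest of all. The log2 fold change came to −0.13 (SE 0.27, adjusted p = 0.819 by limma, exact permutation p = 0.6), and 0.07 without vector replicate 3. The span of Cdkn2b lies within that of the long non-coding gene Gm12610, and no source used here says whether counting used strand.

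Cdkn2c (chr4:109660876-109666756) encodes p18, which acts in late B cell differentiation. It stood at 8.16, 11.2 and 8.59 TPM with vector, against 5.32, 8.50 and 7.15 TPM with SHMT2, or 9.33 ± 1.67 and 6.99 ± 1.59 TPM (mean ± SD, n = 3). SHMT2 replicate 2 overlapped the vector libraries, and the others lay below them. The log2 fold change came to −0.38 (SE 0.19, adjusted p = 0.374 by limma, exact permutation p = 0.2). It stayed below 0 whichever library was left out, from −0.51 to −0.22, and under the marker covariate (−0.27).

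Cdkn2d (chr9:21288459-21291421) encodes p19, the INK4 protein that varies through the cell cycle. It was listed at 9.60, 19.7 and 12.5 TPM with vector, against 8.47, 10.9 and 10.3 TPM with SHMT2, or 13.9 ± 5.19 and 9.90 ± 1.28 TPM (mean ± SD, n = 3). Vector replicates 2 and 3 lay above all SHMT2 libraries and vector replicate 1 lay among them. The log2 fold change came to −0.40 (SE 0.25, adjusted p = 0.445 by limma, exact permutation p = 0.3). Without vector replicates 2 and 3 it was 0.03 (SE 0.17, adjusted p = 0.9304 by limma), and with the marker covariate −0.06 (SE 0.20, adjusted p = 0.921 by limma).

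**Figure D2:**
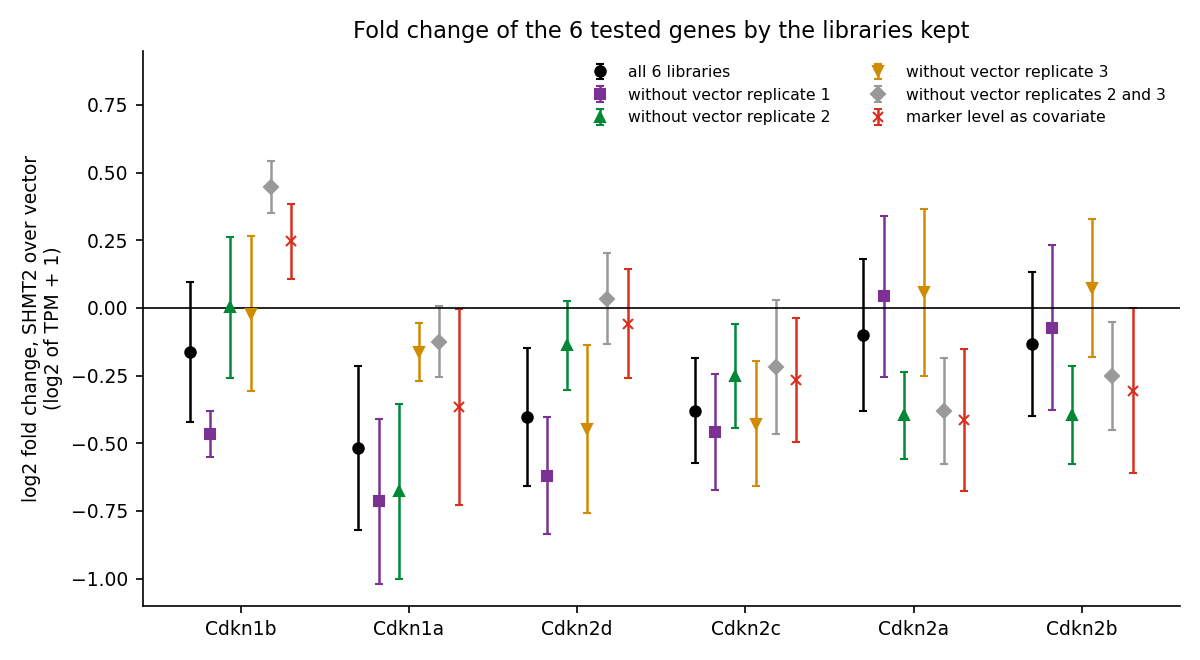
Log2 fold change of SHMT2 over vector (limma on log2 of TPM + 1) for the 6 tested inhibitors, with bars of 1 standard error, for all 6 libraries, with vector libraries left out and with the marker level as a covariate. Cdkn1b runs from −0.47 to 0.45, Cdkn1a and Cdkn2c stay below 0 in each of these fits, and Cdkn2a and Cdkn2b lie within 1 standard error of 0 with all libraries.

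The genes whose pattern over the 6 libraries was most like each inhibitor are given by Pearson's r on log2(TPM + 1), among 8755 or 8756 genes whose mean was 5 TPM or more. These values come without a test, and as the highest of that many genes over 6 libraries they are high by selection. Slmap, Zbtb41 and Kif5b were nearest to Cdkn1a (r 0.991, 0.991 and 0.988), all highest in vector replicate 3, Slmap at 86.8 TPM there and at 66.7 to 69.0 TPM elsewhere. Uimc1, Tmx1 and Hyal3 were nearest to Cdkn1b (0.986, 0.982 and 0.980), and Bbs2, Akap9 and Wtap to Cdkn2a (0.998, 0.995 and 0.989). Celf2, Mgat5 and Snora16a were nearest to Cdkn2b (0.986, 0.976 and 0.970). Rab11b, Eaf1 and Gm11648 were nearest to Cdkn2c (0.982, 0.979 and 0.978), and Fbxo42, 5830415F09Rik and Mcart1 to Cdkn2d (0.994, 0.993 and 0.989).

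The kinases that the inhibitors hold back, and the genes around them, also had 0 genes with a limma adjusted p under 0.05, and their counts at an unadjusted p stand beside the 16.7% of all genes. Of the INK4 targets 4 of 5 were tested, 1 above and 3 below a fold change of 0 (median −0.23), and 1 passed unadjusted. Leaving out vector replicate 1 took that median to −0.57, and leaving out vector replicates 2 and 3 took it to 0.11. The gene that passed was Cdk4, the kinase that INK4 proteins bind, at 70.6, 65.3 and 56.0 TPM with vector, against 85.7, 88.9 and 85.9 TPM with SHMT2. Every SHMT2 library lay above every vector library, and the log2 fold change came to 0.44 (SE 0.10, adjusted p = 0.204 by limma). Its partner Ccnd3, cyclin D3, stood at 94.7, 220.2 and 187 TPM with vector, against 91.5, 110 and 114 TPM with SHMT2, high where Cdkn1b was high. Without vector replicate 1 both passed the adjusted limma test, Cdk4 at 0.51 and Ccnd3 at −0.95, while without vector replicates 2 and 3 Ccnd3 turned to 0.14.

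Of the CIP/KIP targets 7 of 8 were tested, 1 above and 6 below 0 (median −0.09), and 1 passed unadjusted. The direction of this median turned with the libraries kept, to 0.16 with the marker covariate and 0.17 without vector replicate 2, against −0.34 when vector replicate 3 was left out. Cdk2, the kinase bound by p21 and p27, was listed at 97.6, 109 and 92.8 TPM with vector, against 83.9, 84.3 and 80.6 TPM with SHMT2. Its groups did not overlap, and the log2 fold change came to −0.26 (SE 0.09, adjusted p = 0.239 by limma). Ccne1, cyclin E1, was at 4.94, 20.3 and 5.81 TPM with vector, against 4.70 to 5.26 TPM with SHMT2, so that vector replicate 2 alone stood out. All 13 pocket protein and E2F genes were tested, 5 above and 8 below 0 (median −0.11). This median, too, was above 0 with the marker covariate (0.11) and when vector replicate 2 was left out (0.15). E2f5 stood at 33.7, 24.1 and 37.3 TPM with vector, against 39.8, 42.6 and 46.6 TPM with SHMT2 (adjusted p = 0.276 by limma), and Tfdp2, an E2F partner, at 6.03, 73.6 and 23.4 TPM with vector, against 6.10 to 8.37 TPM with SHMT2. Tfdp2 was called without vector replicate 1 (limma log2 fold change −2.37) and turned to 0.23 without vector replicates 2 and 3. Of 26 proliferation genes 20 lay above 0 and 6 below (median 0.14), and the median moved to 0.42 when vector replicate 2 was left out and to −0.09 when vector replicate 3 was. The 1 that passed unadjusted was Cdt1, a licensing factor of replication, with 53.8 to 67.6 TPM with vector, against 39.3 to 48.6 TPM with SHMT2 (adjusted p = 0.219 by limma). The helicase gene Mcm5 had 15.1 to 31.1 TPM with vector, against 34.2 to 34.5 TPM with SHMT2.

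Genes that act on the inhibitors showed no common direction. The 12 genes of inhibitor turnover, mostly ubiquitin ligase subunits, had 7 above and 5 below 0 (median 0.01), and 0 passed unadjusted. Among them Rnf123, a ligase subunit for p27, was listed at 2858, 5820 and 2847 TPM with vector, against 2440, 2439 and 2060 TPM with SHMT2. Whether levels this high come from the counting was not tested. Ddb1, a subunit of another ligase, stood at 44.3 to 52.5 and 53.8 to 56.4 TPM. All 13 transcriptional activators were tested, 6 above and 7 below 0, and 0 passed unadjusted. Sp1, which binds GC boxes, had 136.1 to 175 TPM with vector, against 126 to 135.8 TPM with SHMT2, and Foxo4, an activator of p27, 13.2 to 23.5 and 13.5 to 14.6 TPM. Of the transcriptional repressors 12 of 15 were tested, with 6 on each side of 0. At an unadjusted p 2 passed, 1 in each direction. Ring1, a Polycomb gene, had 27.6 to 33.3 TPM with vector, against 36.7 to 39.8 TPM with SHMT2, without overlap (adjusted p = 0.210 by limma).

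The p53 axis, which acts through Cdkn1a and is fed by ARF, had 20 of 21 genes tested, 5 above and 15 below 0 (median −0.12), and 4 passed unadjusted. Npm1, which binds ARF in the nucleolus, stood at 212 to 221 TPM with vector, against 267 to 358 TPM with SHMT2 (fold change 0.51 on the log2 scale, SE 0.12, adjusted p = 0.204 by limma). Sesn1, a p53 target, stood at 110, 282 and 314 TPM with vector, against 86.5, 66.6 and 74.7 TPM with SHMT2. The groups of Sesn1 did not overlap, vector replicates 2 and 3 were the highest, and the log2 fold change came to −1.49 (SE 0.40, adjusted p = 0.206 by limma). Sesn1 passed the adjusted test without vector replicate 1, at −1.97, and stood at −0.54 (adjusted p = 0.215 by limma) without vector replicates 2 and 3 and at −0.85 (adjusted p = 0.234 by limma) with the marker covariate. The median of the p53 axis ran from −0.19 without vector replicate 2 to −0.06 without vector replicate 3.

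Methylation at the starts was measured in 9 windows of 1 kb on either side of a start, among 17320 windows tested. None was called (10 points or more and an adjusted p under 0.05, binomial model with moderated overdispersion), against 0.0% of all windows. At an unadjusted p under 0.05 the members again had 0 of 9, against 3.72% of all. Of the 9 windows 7 lay under 2% methylated calls in every library, and 59.1% of all windows had a mean below that level. The windows of Cdkn2c overlap, and all cytosines measured at its 2nd start were also counted at its 1st start. The Cdkn1a distal start had no measured cytosine within 1 kb.

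The CpG-rich starts were close to unmethylated in both groups. In the 300-base sequences ERRBS read 37 of the 45 CpG of the ARF start, 22 of the 30 of Cdkn1b, 9 of the 18 of Cdkn2b and 6 of the 23 of the main Cdkn1a start, and no cytosine measured in 6 of the 9 sequences averaged above 2.09%. The other 3, the Cdkn1a distal start, the INK4a start and the 2nd start of Cdkn2c, held no measured cytosine. The main start of Cdkn1a (43 cytosines) had 0.905%, 0.754% and 0.652% in vector and 0.470%, 0.776% and 0.340% in SHMT2. At Cdkn1b (56 cytosines) all libraries lay between 0.148% and 0.321%, and at the starts of Cdkn2c (129 and 58 cytosines) between 0.102% and 0.274%. The start of Cdkn2b (51 cytosines) had 0.593%, 1.097% and 0.506% in vector and 0.619%, 0.356% and 1.09% in SHMT2. At the ARF start of Cdkn2a, 157 cytosines with at least 12272 calls per library, the levels were 1.27%, 0.972% and 1.34% against 0.934%, 0.901% and 1.14%. None of these groups was separate. Cdkn2d (52 cytosines) was separate, at 0.228%, 0.258% and 0.215% in vector and 0.170%, 0.117% and 0.0683% in SHMT2, a difference of −0.115 points (unadjusted p = 0.0637, adjusted p = 0.879, exact permutation p = 0.1).

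The window around the INK4a start of Cdkn2a was the exception among the INK4 genes. Its 7 measured cytosines (chr4:89281993-89282034) lie in 1 stretch inside the gene, 12585 to 12626 bases from the ARF start. They lie downstream of the INK4a sequence given above, which ends at chr4:89282143 and held no measured cytosine. They were read by 77 to 189 calls per library. The vector libraries had 14.6%, 13.95% and 4.86% methylated calls and the SHMT2 libraries 0%, 3.70% and 4.17%. The 0% of SHMT2 replicate 1 is 0 of 77 calls, which allows a level of up to 3.90%, and the 95% Wilson interval of vector replicate 1 ran from 9.74% to 21.3%. Intervals and limits cover counting error only. The SHMT2 libraries lay below the vector libraries, vector replicate 3 close to them. Of the 9 start windows 2, this one and Cdkn2d, were separate in that direction, against 4.69% of all windows. That of Cdkn2d held only 3 to 11 methylated calls per library. At the INK4a window the difference was −8.51 points (unadjusted p = 0.222, adjusted p = 0.879, exact permutation p = 0.1), and −9.05 points without SHMT2 replicate 2.

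Cdkn1c stood apart from the other inhibitors in the window around its start. The 23 cytosines of that window all lay inside the gene, 722 bases or more from the start, and none was measured at the start itself. The window had 49.7%, 46.1% and 48.7% in vector and 56.8%, 66.3% and 46.7% in SHMT2. The SHMT2 libraries spread more widely than the vector libraries, with replicate 2 highest and replicate 3 inside the vector range. The difference was 8.41 points (unadjusted p = 0.113, adjusted p = 0.879, exact permutation p = 0.3), and it was 3.58 points without SHMT2 replicate 2 and 13.3 points without SHMT2 replicate 3 (unadjusted p = 0.0118, adjusted p = 0.530, binomial model). Of 107 cytosines within 5 kb of the gene none had a mean under 5% and 44 were above 50%, while 789 of the 977 cytosines around all 7 genes were under 5%. Across 79 cytosines in the gene, 722 to 2141 bases from its start, the vector libraries averaged 45.6%, 42.1% and 48.2% and the SHMT2 libraries 48.6%, 68.2% and 43.5%. SHMT2 replicate 2 was the highest library there, and the others lay close together.

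**Figure D3:**
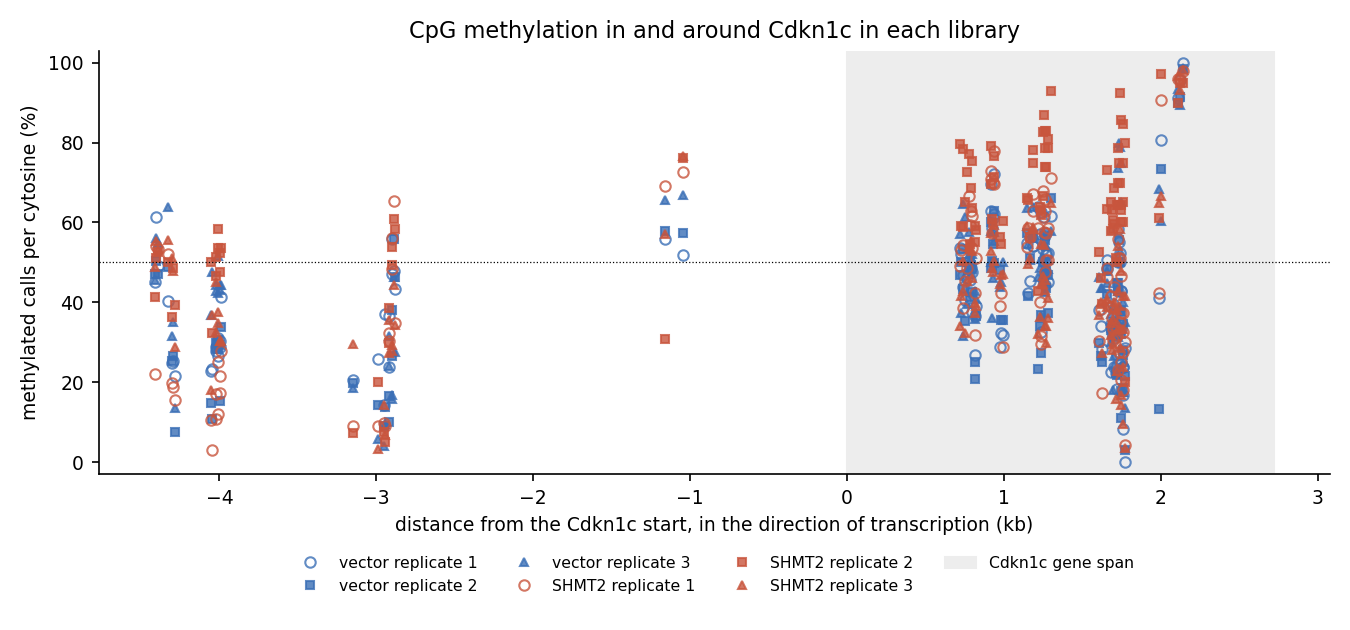
Percent of methylated calls at each of 107 CpG cytosines in and around Cdkn1c against the distance from its start in kb, with vector libraries in blue, SHMT2 libraries in red and one symbol per replicate. The mean level lies between 5% and 95% at 106 of them, and SHMT2 replicate 2 (red squares) is the highest library over much of the gene, with a mean of 68.2% over 79 cytosines.

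At the other gene ends 4 windows of inhibitors were measured, among 4197, and 0 of 4 were called against 0.0% of all. In Cdkn2b 6 cytosines (chr4:89307124-89307170), 3862 to 3908 bases from the start, had 6.58%, 4.00% and 2.61% in vector and 11.9%, 15.0% and 16.5% in SHMT2, read by 76 to 226 calls. All SHMT2 libraries lay above all vector libraries, as in 4.79% of the windows at other ends. The highest vector library, replicate 1, had a 95% Wilson interval of 2.84% to 14.5%, which reaches into the SHMT2 values. The difference was 10.1 points (unadjusted p = 0.0318, adjusted p = 0.908, exact permutation p = 0.1) and 9.81 points without SHMT2 replicate 2. This was the 1 of 4 windows with an unadjusted p under 0.05, against 3.88% of all.

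The other end of Cdkn2a (20 cytosines) had 12.96%, 7.09% and 14.9% in vector and 27.7%, 21.3% and 11.6% in SHMT2, with SHMT2 replicate 3 inside the vector range (unadjusted p = 0.0690, adjusted p = 0.908, exact permutation p = 0.3). That of Cdkn1c had 44.3% to 60.3% in vector and 43.7%, 73.0% and 49.1% in SHMT2, a difference of 1.83 points that turned to −7.05 points without SHMT2 replicate 2. That of Cdkn2d (54 cytosines) had 3.03% to 4.81% in vector and 2.90% to 4.88% in SHMT2, a mix of unlike stretches. Beyond the gene end, 51 of its cytosines averaged 0.169% in vector and 0.299% in SHMT2. The 3 inside the gene averaged 71.8% in vector and 74.2% in SHMT2.

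**Figure D4:**
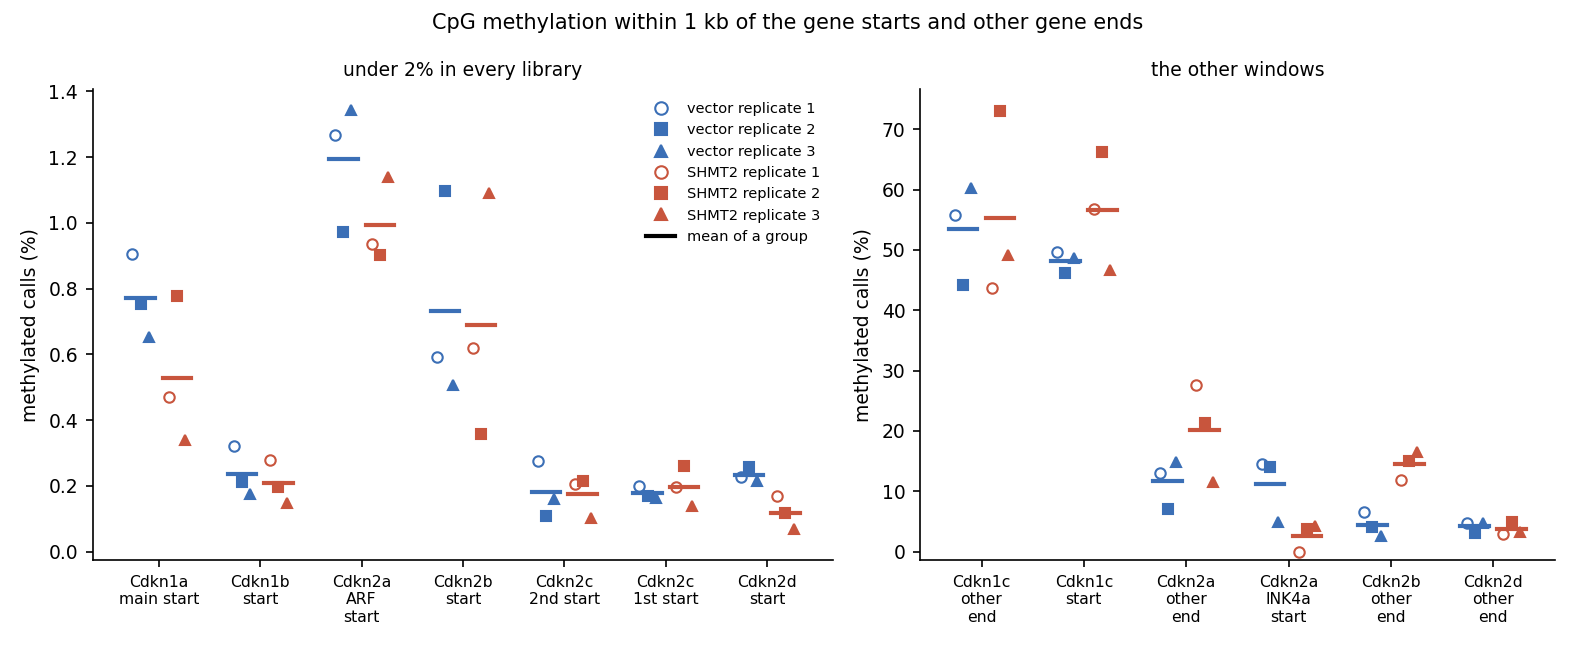
Percent of methylated calls within 1 kb of each inhibitor start or other gene end, by library, with a bar at each group mean; the left panel holds the starts under 2% in every library and the right panel the other windows, on its own axis. In the right panel the SHMT2 libraries lie above the vector libraries at the Cdkn2b other end and below them at the INK4a start of Cdkn2a.

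Single cytosines gave no call. Within 5 kb of the 7 genes 977 cytosines were measured, and 182 of them had a mean between 5% and 95% and were tested. Of these 0 were called (adjusted p under 0.05 and 25 points), as were 0.0% of 485321 cytosines, and 3 had an unadjusted p under 0.05 against 5.28% of all. The groups did not overlap at 19 of the 182, 14 higher and 5 lower in SHMT2, and at 9.59% of all cytosines in either direction. A share of all cytosines by direction is not given here. Of the 14, 8 were at Cdkn1c, where SHMT2 replicate 2 stood highest, and Cdkn2a had 4 higher and 4 lower. The 3 with an unadjusted p under 0.05 were 2 at Cdkn1c and 1 downstream of Cdkn2b. The one near Cdkn2b (chr4:89303145) had 40.2%, 32.0% and 31.4% in vector and 57.0%, 81.3% and 46.1% in SHMT2. The lowest adjusted p among the members, 0.860 in the binomial model, was the same at Cdkn1a, Cdkn1c, Cdkn2a and Cdkn2b. Averaged with the cytosine measured beside it, the site had 28.9%, 21.4% and 29.3% in vector. The SHMT2 libraries then had 56.8%, 62.4% and 25.4%, and the groups overlapped.

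H3K4me3, a mark of active or poised starts, was present at all 7 genes. A peak was found within 1 kb of 9 of the 10 starts in all 5 libraries, as at 43.8% of 35000 gene starts. The exception was the Cdkn1a distal start, with no peak in any library. The start of Cdkn1c was taken as the gene end that carried this mark, so its peak follows from that choice. Counted at the start base itself, 7 starts had a peak in all 5 libraries, with Cdkn1c at 0 and Cdkn2d at 1 of 5. The fold enrichment of the authors' peak caller, used only within a library, ranked the Cdkn1b peak above 96.5% to 99.0% of the peaks of its list and the Cdkn2d peak above 82.3% to 95.9%. The 1st start of Cdkn2c ranked at 79.0% to 95.7%, the ARF start at 77.7% to 85.1% and Cdkn1a at 63.2% to 88.2%. The INK4a start lay at 51.0% to 74.6% and Cdkn2b at 40.9% to 66.1%. Cdkn1c, with the lowest RNA of the 7, had the lowest rank, 23.5% to 48.2%, in a region of 464 bases that starts 64 bases into the gene.

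H3K4me1, a mark that flanks active starts and covers enhancers, had a peak within 1 kb of 5 of the 10 starts in all 4 libraries, as at 34.6% of all starts. Those were both starts of Cdkn2a, Cdkn2b, the 2nd start of Cdkn2c and Cdkn2d. At the main start of Cdkn1a and the 1st start of Cdkn2c the peak was missing in vector replicate 5, and at Cdkn1b in vector replicate 4. At Cdkn1c it was found in SHMT2 replicate 4 alone. The SHMT2 lists were longer, with 48993 and 52056 peaks against 37274 and 33119, and the part of list length in these gaps was not tested. With peaks of a −log10 q of at least 5 alone, 1 of the 10 starts had H3K4me1 in all 4 libraries.

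Merged over libraries, 21 H3K4me3 and 17 H3K4me1 regions lay within 5 kb of the inhibitors, of which 15 and 10 were present in every library. One H3K4me3 region was present in all 3 SHMT2 libraries and in no vector library, as were 2.05% of all 39361 regions. It lies inside Cdkn2b (chr4:89306902-89307469), 3563 to 4130 bases from the start, with a fold enrichment of 5.81, 8.15 and 5.03 in SHMT2 replicates 4, 5 and 6. The peaks ranked above 28.1%, 40.2% and 11.98% of their lists, in the weaker part of each. The 3 SHMT2 lists were longer than both vector lists (34458 to 38249 against 33313 and 33806 peaks), and the part of list length in this was not tested. The 6 cytosines of Cdkn2b with 11.9% to 16.5% methylation in SHMT2 lie inside this region, although RNA, methylation and peaks came from libraries not said to be of the same animals. For H3K4me1 no such region lay near an inhibitor, against 16.1% of all 55044 regions. H3K4me1 peaks covered 25.1% and 38.5% of the Cdkn2b span in vector and 56.0% and 90.8% in SHMT2, the widest gap among the 7 genes. At Cdkn1b they covered 67.2% and 67.4% against 69.8% and 68.2%, and at Cdkn2c 66.8% and 61.7% against 63.8% and 67.4%. Over the genome the H3K4me1 lists covered 77.4 and 62.6 Mb in vector and 114 and 118 Mb in SHMT2. With 2 against 3 or 2 libraries, peaks are given without a test.

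**Figure D5:**
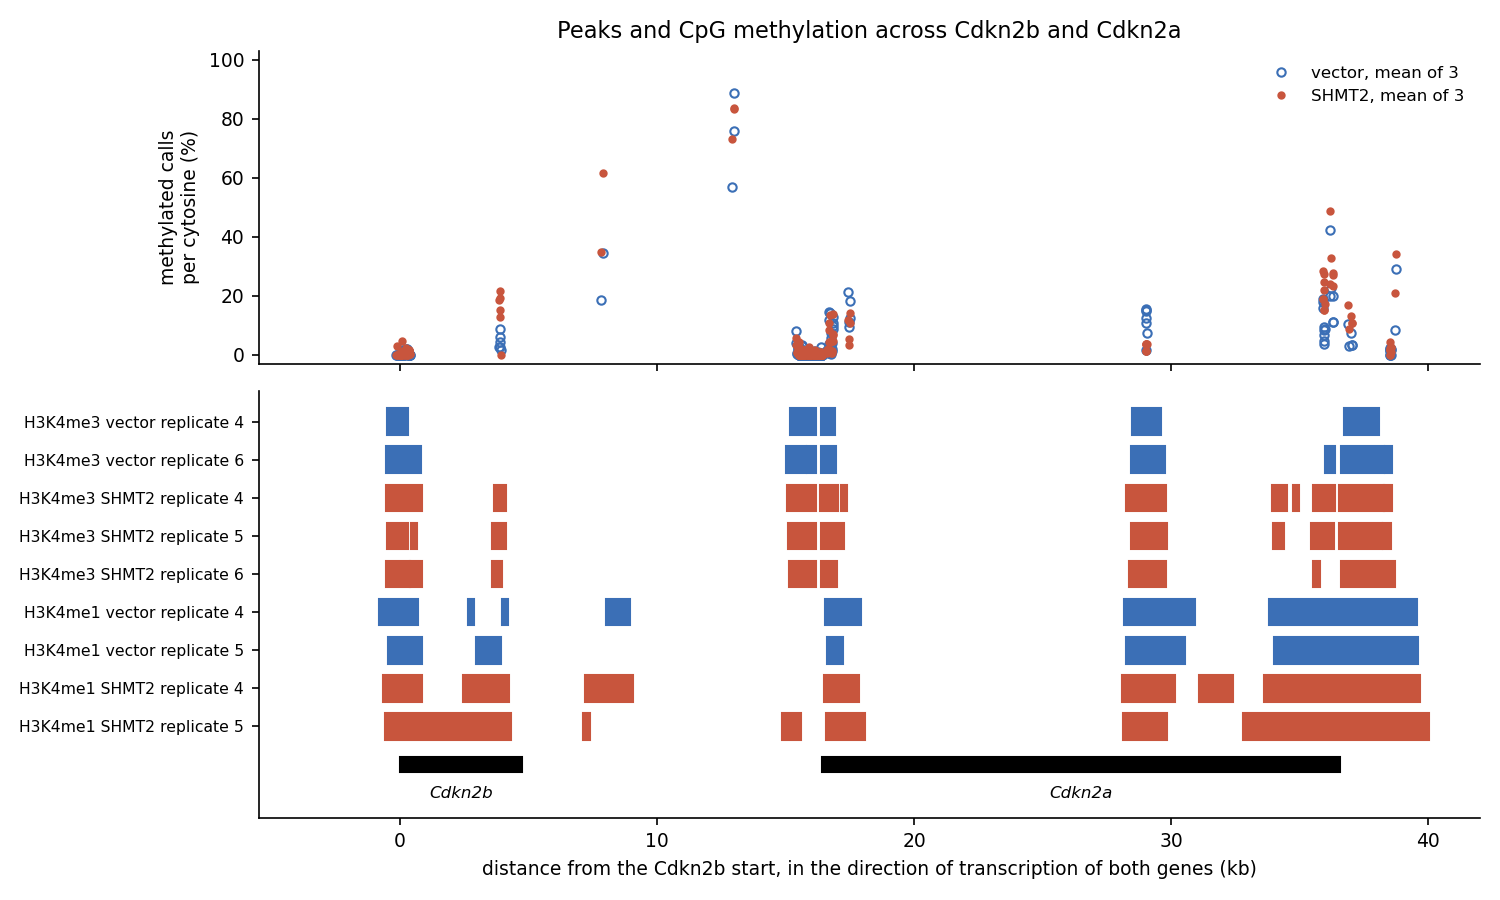
Mean percent of methylated calls per cytosine in each group (top) and peaks of H3K4me3 and H3K4me1 in each library (bottom, vector blue and SHMT2 red) across Cdkn2b and Cdkn2a, by distance from the Cdkn2b start in kb; black bars are the gene spans. The H3K4me3 peaks between 3563 and 4130 bases from the start appear in the 3 SHMT2 libraries, and peaks at the Cdkn2b, ARF and INK4a starts appear in all.

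Genes beside the inhibitors gave a background for each locus. Of 21 neighbours 14 were tested, 7 above and 7 below a fold change of 0, and 0 passed the adjusted test (limma, 2 unadjusted). Beside Cdkn2b, Mtap stood at 6.14, 11.5 and 6.59 TPM with vector, against 7.60 to 9.72 TPM with SHMT2, and Dmrta1 at 0.0651 TPM or below. Next to Cdkn2c, Faf1 had 21.1 to 22.7 TPM with vector, against 24.5 to 26.8 TPM with SHMT2 (adjusted p = 0.259 by limma). In the imprinted cluster of Cdkn1c, the silencing RNA Kcnq1ot1 had 2.02 to 2.67 TPM with vector, against 1.497 to 1.77 TPM with SHMT2 (log2 fold change −0.34, SE 0.15, adjusted p = 0.320 by limma), while Kcnq1, Phlda2 and Slc22a18 were at 0.0832 TPM or below. Kri1, 490 bases from Cdkn2d, had 40.5 to 47.5 TPM with vector, against 33.3 to 36.1 TPM with SHMT2 (adjusted p = 0.214 by limma).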

How the data were processed

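The deposited RNA-seq values were TPM, 1 table per library, made by the authors; STAR and the build mm10 are named in the submitters' processing notes, and no source used here names the tool that made TPM. A TPM table keeps no depth. The ERRBS tables hold, per the file headers, coverage as a count for each cytosine and the percent read as C and as T; Bismark and Bowtie2 are named in the submitters' processing notes. The deposited peak lists hold MACS2 peaks on BWA alignments per those notes, called per library, with a fold enrichment, a score and −log10 q-values by the authors. Input libraries were not analysed here.

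Expression was tested with limma 3.58.1 (R 4.3.3) on log2(TPM + 1) for genes averaging 1 TPM or more, which understates changes of low genes. Methylation was tested in a binomial model with moderated overdispersion (Benjamini-Hochberg adjusted). It used cytosines covered 10 times or more in every ERRBS library and windows of at least 3 such cytosines. Both fits were also run on simulated data, with RNA and window changes set larger than any seen at the inhibitors with all libraries. Those runs do not show whether smaller changes would be found. Starts came from RefSeq promoters (32851) or, without an entry, as for Cdkn1c, the 1 gene end with H3K4me3 in any library (2149). Methylated calls were rounded from percent and coverage. Groups came from sample titles.

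The members and the gene lists were chosen with earlier results of these data known. Named genes were the 7 members, the 2 genes of each pathway list with the smallest limma p, the locus neighbours, and the 3 genes most like each member; 1 gene that this rule names is not reported here. Alternatives were another pseudocount, filter, scaling, window, coverage and overlap, Fisher's exact test, a replicate block, a marker covariate and leaving out libraries.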

Additional observations from a re-analysis of the deposited data

How the results depend on the processing

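The member calls that could be made kept their side of the threshold under another pseudocount, no filter, median ratio scaling, another coverage minimum and other windows. At a coverage minimum of 20 the INK4a start could no longer be tested. In windows of 500 bases on either side the same held for the main start of Cdkn1a, for Cdkn1c and for the 2nd start of Cdkn2c. Leaving out 1 library in turn gave 0 to 1 called inhibitors and 0 to 850 called genes by limma, both highest without vector replicate 1, and 0 to 5 called cytosines. The marker covariate gave 1 called gene and a Cdkn1b change of 0.25. Leaving out vector replicates 2 and 3 gave 6 called genes and turned Cdkn1b (0.45), Cdkn2d (0.0342), Ccnd3 (0.14), Tfdp2 (0.23) and Foxo4 (0.0818), where the 1 vector library left is assumed to vary like the others. Over single left-out libraries Cdkn1b ran from −0.47 to 0.0018, Cdkn2a from −0.40 to 0.0577 and Cdkn2b from −0.40 to 0.0724. With calls pooled by group, which leaves out replicate spread, Fisher's exact test called 780 start windows, 674 higher and 106 lower. Start methylation differences near 0 turned, in points: with the arcsine fit Cdkn2b 0.194, Cdkn1b 0.0263 and the 2nd start of Cdkn2c 0.0337, and in 2 kb windows Cdkn1b 0.0362 and Cdkn2c 0.0209. Over single left-out libraries they ran from −0.244 to 0.139 at Cdkn2b, −0.0626 to 0.0157 at Cdkn1b, −0.0428 to 0.0398 at the 2nd start of Cdkn2c and −0.00969 to 0.05002 at its 1st start. H3K4me1 lay in all libraries at 1 start with a −log10 q of at least 5 and at 2 starts at the start base itself. H3K4me3 did so at 9 starts with that q, at 7 at the start base and, with the Cdkn1a distal start, at all 10 within 5 kb. The causes were not tested. Same-numbered libraries did not deviate together (correlations of −0.42 to −0.06 in RNA and −0.23 to −0.05 in ERRBS). With 3 libraries in each group this cannot decide whether the numbers pair them, and no label says so. With a replicate block 0 inhibitors, 0 genes and 0 start windows were called. Depth limits the INK4a start and the Cdkn2b other end, read by 77 to 189 and 76 to 226 calls, and the RNA depth is unknown.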
